A study of Caenorhabditis elegans with 4 samples.

Results

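The regions described here are the places on chromosome IV of the nematode Caenorhabditis elegans that were called as FKH-10 peaks by ChIP-seq. All peaks that the series-wide list places on chromosome IV were taken, with no limit on their q-value, which gave 319 of the 1838 peaks in that list. Their positions are on WormBase WS220. The peaks that replicate 1 (143 on this chromosome) and replicate 2 (67) listed there were used as support, where an overlap of 1 bp or more counted. A pair of wide spans, IV 7026768 to 7060311 and IV 9048092 to 9078801, is given apart from the rest and called the left and the right span. They held 36 of the 319 peaks, which leaves 283 outside them.

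All 4 samples came from late embryos of strain OP337, raised at 20 °C as hermaphrodites, in which unc119(ed3) animals carry the transgene wgIs377, that is fkh-10::TY1 EGFP FLAG together with unc119. The 2 ChIP samples were collected with antibody against GFP, and the 2 input samples are total chromatin DNA of the same strain. Every sample, inputs included, shares the unc119(ed3) mutation, the rescuing unc119 and the tagged factor. The transgene was introduced by bombardment and the strain outcrossed 3 times, and no copy number or insertion site is stated. Inputs have no peak list, so they entered no comparison. Whole embryos were used, so binding in fewer cells and weaker binding in each cell cannot be told apart. That the peaks belong to FKH-10 rests on the labels, since the tagged locus and the rescue marker were not looked up on this build. Depth is unknown, because the lists hold peaks and not reads. The labels leave unsaid whether separate cultures gave the replicates, so differences between them may be technical. Intervals are exact Clopper-Pearson intervals at 95% and cover counting error only.

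FKH-10 belongs to the forkhead family, transcription factors that bind DNA through a winged-helix domain. Relatives in the worm include PHA-4, which specifies the pharynx, and DAF-16, which acts below insulin signalling. In ChIP-seq, a protein is crosslinked to DNA and collected with an antibody, and the DNA that comes with it is sequenced, so a peak marks a place where reads pile up over a control. Worm autosomes have gene-rich central regions and arms with more repeats. Chromosome IV also carries most genes for the worm's piRNAs, small RNAs that silence foreign sequences in the germline. No gene is named for a peak and no peak sequence was read, as the gene table at hand belongs to a different build.

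A small part of the chromosome IV peaks was seen in both replicates, and most were seen in neither. Of the 319, 42 overlapped a peak of both replicates (13.2%, interval 9.66 to 17.4, against 15.1% of all series peaks). A further 79 overlapped replicate 1 alone (24.8%, interval 20.1 to 29.9, against 18.9% of all). Replicate 2 alone accounted for 18 (5.64%, interval 3.38 to 8.77, against 6.58%). The remaining 180 had no counterpart in either replicate (56.4%, interval 50.8 to 61.9, against 59.4%). On the other 5 chromosomes together the shares were 15.5% in both, 17.6% in replicate 1 alone, 6.78% in replicate 2 alone and 60.0% in neither. The shares in both replicates ran from 4.17% on chromosome I to 21.8% on X, with chromosome IV inside that range. The share in replicate 1 alone was above that of each other chromosome, where it ran from 8.33% on I to 21.0% on III. Outside the spans it was 57 of 283 peaks (20.1%, interval 15.6 to 25.3), which is below the 21.0% of III. None of these differences between chromosomes was tested.

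Read from the replicates, most places of the shorter list were found again in the longer one. Of the 67 replicate 2 peaks, 48 overlapped replicate 1 (71.6%, interval 59.3 to 82.0, against 69.7% of all replicate 2 peaks). Of the 143 replicate 1 peaks, 50 overlapped replicate 2 (35.0%, interval 27.2 to 43.4, against 43.5% of all replicate 1 peaks). Outside the spans both replicates had 37 shared peaks, out of 102 in replicate 1 (36.3%) and 56 in replicate 2 (66.1%). Nearly all replicate peaks had a series peak over them, namely 134 of 143 from replicate 1 (93.7%, against 93.5% of all) and 65 of 67 from replicate 2 (97.0%, against 96.4%). Of the 9 replicate 1 peaks without one, 6 were narrower than 50 bp.

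The 283 peaks outside the spans were spread over the whole chromosome, as the plot along its length shows. The first lay at IV 97833 to 97977 and the last at IV 17471987 to 17472120. Every one of 20 equal parts of 0.874 Mb held between 7 and 23 of them, with a median of 14.5. The fullest part lay at 15 to 20% of the length and the emptiest at 85 to 90%. Peaks in both replicates were found in 18 parts, with at most 5 in a part, at 60 to 65% of the length. The parts at 30 to 35% and 55 to 60% had none.

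**Figure D1:**
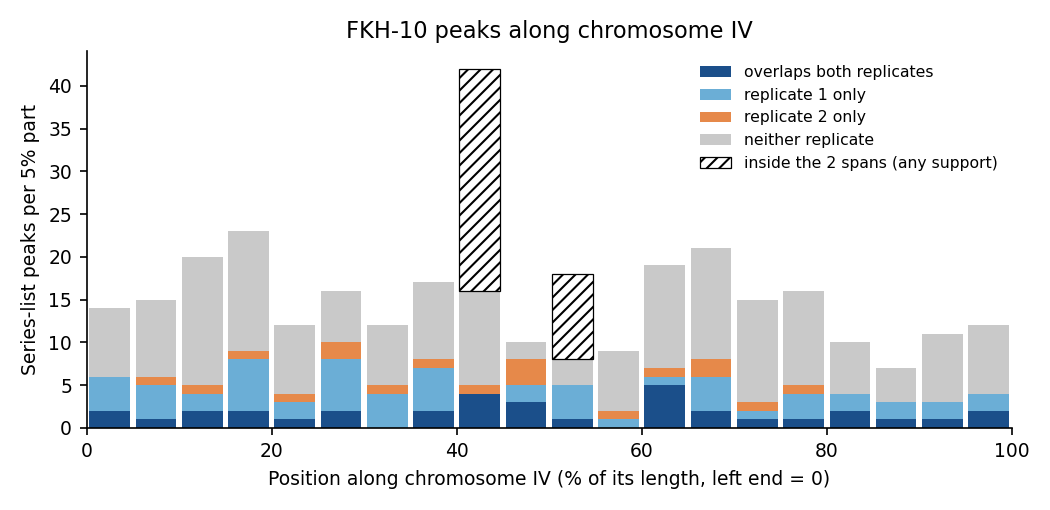
Number of series-list peaks (vertical axis) in 20 equal parts of chromosome IV (horizontal axis, % of length), stacked by support and with the peaks of the spans hatched. The part at 40 to 45% reaches 42 peaks because 26 of them lie in the left span, and outside the spans no part holds more than 23.

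Both spans lie in the middle 33.3% of the chromosome, and a smaller share of the peaks lay there without them. With them, 127 of 319 peaks (39.8%, interval 34.4 to 45.4) had their midpoint there. Without them it was 91 of 283 (32.2%, interval 26.7 to 37.9), while the left 33.3% held 106 and the right 33.3% held 86. The share in replicate 1 was 53.1% with the spans and 34.3% without them, and in replicate 2 it was 53.7% and 44.6%. Central peaks outside the spans had a median width of 274 bp, against 196.5 bp on the left and 198.5 bp on the right. Of these central peaks, 16 of 91 overlapped both replicates (17.6%, interval 10.4 to 27.0), against 10 of 106 on the left (9.43%, interval 4.62 to 16.7) and 9 of 86 on the right (10.5%, interval 4.90 to 18.9). The intervals overlap, and the difference was not tested.

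Long stretches of the chromosome had no series peak. The longest ran from 9444691 to 10160049, which is 715 kb, and neither replicate had a peak in it. The next were 15646869 to 16144163 (497 kb) and 4750199 to 5183577 (433 kb), also empty in both replicates. Outside the spans the median gap between neighbouring peaks was 31.9 kb. At the other end of the scale, 19 gaps outside the spans were 1 kb or shorter. No gap was shorter than 201 bp anywhere in the series list, 202 bp in replicate 1 or 204 bp in replicate 2.

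When peaks no more than 10 kb apart were joined, 128 of the 283 peaks outside the spans (45.2%) fell into 51 groups. Of these groups 35 were pairs and 10 held 3 peaks. The largest held 6 peaks, at IV 16482756 to 16502166, of which 1 overlapped both replicates and 5 overlapped neither. Groups of 5 lay at IV 13016874 to 13036322 and IV 10499913 to 10507860. No such share is given for the other chromosomes, so it is unknown whether 45.2% is particular to chromosome IV. The group with most called bases outside the spans had 2.53 kb, against 18.892 kb in the left span and 17.276 kb in the right. The spans are the groups with at least 8 kb called, so part of this contrast is built in.

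Outside the spans, replicate support was concentrated at the strong end of the list. The authors' q-value, used only to order peaks within a list, ran there from 2.54e-62 to 0.000977. The peaks were ordered by q and split into 4 equal groups. In the group with the lowest q, 33 of 71 peaks overlapped both replicates (46.5%, interval 34.5 to 58.7), 22 overlapped replicate 1 alone, 10 replicate 2 alone and 6 neither. In the next group 1 of 71 overlapped both and 46 overlapped neither (64.8%). In the following group the count in both was 0 of 71, which allows a share of up to 5.06% by the interval, and 59 were in neither. In the weakest group 1 of 70 was in both and 62 were in neither (88.6%). The median width was 380 bp in the strongest group, then 251 and 191 bp, and 148.5 bp in the weakest. Series and replicate lists presumably rest on shared reads, so a link between the q-value and support is partly built in. No such split is given for the whole list or the other chromosomes, so it is unknown whether chromosome IV differs from them in this.

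**Figure D2:**
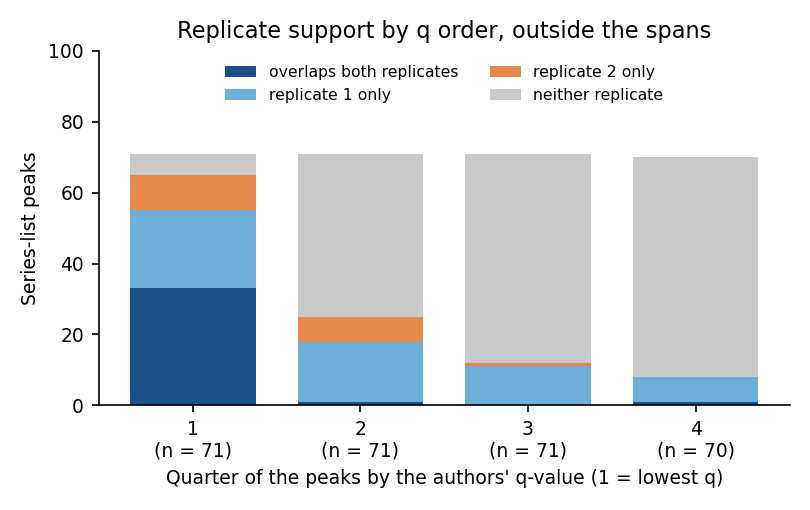
Number of series-list peaks outside the spans (vertical axis) in 4 equal groups by q-value (horizontal axis, 1 is the lowest q), stacked by replicate support. Overlap with both replicates is found for 33, 1, 0 and 1 peaks from the strongest to the weakest group.

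Most chromosome IV peaks were narrow, and the widest were those of the spans. The median width was 246 bp over all 319 (quartiles 152.5 and 375 bp), 224 bp outside the spans, 432 bp in the left span and 1100.5 bp in the right. Peaks of the other chromosomes together had a similar median of 228 bp (quartiles 149.5 and 343 bp). Outside the spans, the median was 403 bp for peaks in both replicates, 335.5 bp for replicate 2 alone, 231 bp for replicate 1 alone and 185 bp for neither. The 22 peaks under 50 bp (6.90% of 319, against 7.83% of all series peaks) all lay outside the spans. The narrowest was 3 bp wide. At 1000 bp or wider there were 15 peaks (4.70%, interval 2.66 to 7.64, against 2.56% of all). Of these, 7 lay in the left span, 5 in the right and 3 elsewhere. Outside the spans the share was 1.06% (interval 0.219 to 3.07), against 2.11% on the other chromosomes. The spans are the groups with at least 8 kb called in this same list, so wide peaks there are partly built in.

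**Figure D3:**
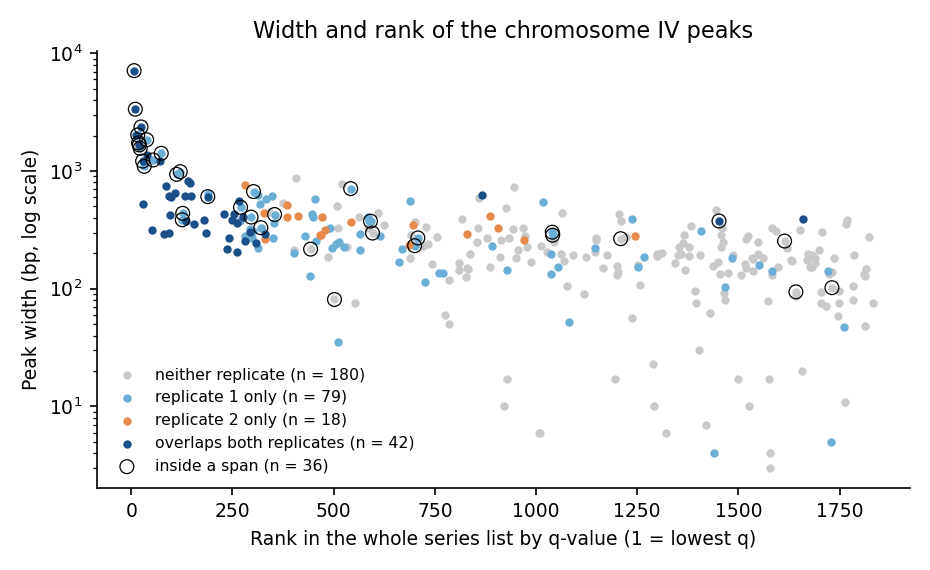
Width in bp (vertical axis, log scale) of each of the 319 peaks against its rank by q-value in the whole series list (horizontal axis), coloured by replicate support, with span peaks ringed. Of the 42 peaks in both replicates, 39 rank at 331 or better. The 22 of all 319 peaks that are narrower than 50 bp lie to the right of rank 500, and none of them is in both replicates.

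The 20 peaks outside the spans with the lowest q among those in both replicates ranked from 12 to 184 in the series list. They were 292 to 2019 bp wide, with a median of 609.5 bp. In replicate 1 their best overlapping peaks ranked from 14 to 449 of 711 (median 150), and in replicate 2 from 10 to 354 of 439 (median 128). The left 33.3% of the chromosome held 7 of them, the middle 33.3% 10 and the right 33.3% 3.

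The strongest was IV 14032452 to 14034470, 2019 bp wide, with a q of 2.54e-62. Replicate 1 called it at 14032446 to 14034464 (q 2.88e-32, rank 14) and replicate 2 at 14032502 to 14034373 (q 1.36e-28, rank 10). It was thus placed alike in all 3 lists and stood near the top of each. The next, IV 11025855 to 11026382, was 528 bp wide with a q of 3.38e-24, and ranked 48 in replicate 1 and 41 in replicate 2.

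The other wide peaks outside the spans were less evenly called. At IV 11593311 to 11594685 (1375 bp, q 1.54e-21), replicate 2 called 1038 bp at rank 56, whereas replicate 1 called 409 bp at rank 183. At IV 16491520 to 16492729 (1210 bp, q 1.74e-16) both replicates called a pair of separate peaks under the single series peak. The pair ranked 449 and 625 in replicate 1 but 132 and 404 in replicate 2, and the series peak ranked 71. Replicate 1 thus called the least of both places, and replicate 2 also called less of them than the series list did.

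The 3 narrowest named peaks on the left part of the chromosome were placed closely by both replicates. IV 654775 to 655087 (313 bp, q 7.50e-19) ranked 51 in replicate 1 and 117 in replicate 2. IV 390363 to 390660 (298 bp, q 2.44e-14) was 227 bp wide in both replicates and ranked 89 and 152. IV 4749907 to 4750198 (292 bp, q 1.88e-15), with ranks of 71 and 116, is the last peak before the empty stretch of 433 kb. All 3 had their lower rank number in replicate 1. Wider named peaks on the left did not all do so, as at IV 2993097 to 2993744 (ranks 221 and 87).

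Which replicate ranked the 20 higher turned over with the scale, since the replicate 2 list is the shorter. By rank number 13 of the 20 stood higher in replicate 2, but as a percentile of list length 14 stood higher in replicate 1 and 6 in replicate 2. Among those 6 were IV 10821425 to 10822177 (rank 208 in replicate 1 and 76 in replicate 2), IV 2993097 to 2993744 (221 and 87) and IV 3859376 to 3859987 (293 and 89). The largest differences the other way were at IV 8431673 to 8432459 (141 and 354) and IV 4586015 to 4586401 (115 and 307). The remaining named peaks began at 6645746, 8927023, 13887265, 2053348, 8181425, 10503722, 7845522 and 7573894, and their ranks ran from 94 to 281 in replicate 1 and from 99 to 213 in replicate 2.

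Some places outside the spans were strong in the replicate 1 list without a partner in replicate 2. The places given here were chosen after their values were seen. IV 1595971 to 1596242 ranked 113 in replicate 1 (q 9.35e-08) and IV 8252915 to 8253183 ranked 144 (q 4.13e-07), with no peak in replicate 2. The best unshared peak of replicate 2, IV 8432819 to 8433069, ranked 231 of 439 (q 5.69e-05), past the middle of that list. In the series list, the strongest peak in replicate 1 alone was IV 11691981 to 11692616 (rank 190, q 2.30e-10). For replicate 2 alone it was IV 13029567 to 13030331 (rank 281, q 7.90e-09). The strongest in neither was IV 12771430 to 12771755, at rank 322 with a q of 3.62e-08.

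Where peaks of both replicates overlapped outside the spans, their midpoints lay close together. Pairs were formed by overlap of 1 bp or more, so closeness is partly built in. In the 37 pairs the distance between midpoints had a median of 32 bp (quartiles 15 and 75.5 bp, largest 272.5 bp), and 31 pairs (83.8%) lay within 100 bp. Replicate 2 gave the wider call in 26 pairs, replicate 1 in 9, and 2 were equal, with medians of 355 and 276 bp. The q rank percentiles of these pairs had a Spearman's rho of 0.52 and a Pearson's r of 0.51 across the 37 places. This is a description of pairs from the same 2 libraries, and places are not independent replicates.

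At 4 places on chromosome IV the replicate calls matched to within 5 bp at both edges, and these places were missing from the series list or ranked low there among peaks in both replicates. The 5 bp limit and the places were chosen after their values were seen. At IV 11070898 to 11071287 replicate 1 had a q of 8.92e-07 (rank 163) and replicate 2 a q of 1.45e-10 (rank 42), whereas the series list had 0.000657 (rank 1660). At IV 9048092 to 9048467, the first peak of the right span, the ranks were 418 and 181 in the replicates and 1452 in the series list. At IV 12318884 to 12319512 they were 207 and 412, against 867. The fourth place was called at 9046973 to 9047344 in replicate 1 (rank 233) and at 9046974 to 9047347 in replicate 2 (rank 75) and had no series peak, although it lies beside the right span. It was the sole place on the chromosome called in both replicates without a series counterpart.

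These 3 peaks were the 3 weakest of the 42 series peaks in both replicates. The other 39 ranked at 331 or better, with a median rank of 140. On the other chromosomes 8 places met the same 5 bp limit. Of those, 2 had no series peak, and the other 6 ranked from 29 to 1416 with a median of 580.5, whereas all series peaks in both replicates on those chromosomes had a median rank of 160.5. No test was run on this pattern. The labels and headers do not say how the series list was made from the reads, and the part of that step in the pattern was not tested.

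**Figure D4:**
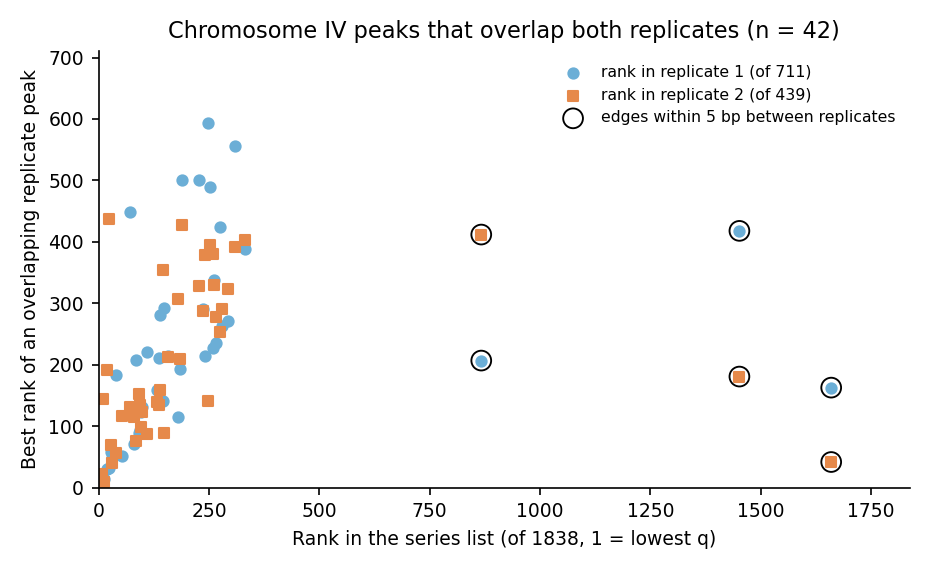
Best rank of an overlapping peak in replicate 1 (circles, of 711) and replicate 2 (squares, of 439) on the vertical axis, against rank in the series list (horizontal axis, of 1838), for the 42 chromosome IV peaks in both replicates. The 3 peaks whose replicate edges match to within 5 bp are ringed and lie at series ranks of 867, 1452 and 1660, apart from the other 39.

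The wide spans took up 0.368% of the chromosome, and 32.3% of its called bases in the series list lay under their peaks. A cut of at least 8 kb called in this same list returns exactly these spans, so a high share there is built in. In replicate 1 it was 53.1% and in replicate 2 25.3%. With 1 list per replicate, differences between the replicates in a span have no test.

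The left span, 33.544 kb long, was called in many pieces by replicate 1 and hardly at all by replicate 2. The series list had 26 peaks over 56.3% of it, replicate 1 had 22 over 43.0% and replicate 2 had 3 over 3.73%. Of the bases called by replicate 2, 94.3% were also called by replicate 1, while 8.18% of those of replicate 1 were called by replicate 2. The 3 replicate 2 peaks lay at 7027398 to 7027994 (rank 438 of 439), 7039181 to 7039717 (rank 191) and 7057713 to 7057828 (rank 428). The outer 2 were therefore at the weak end of that list, and 17.995 kb separated the last from the one before it. The best replicate 1 peak there, at 7046271 to 7048050, ranked 20 of 711 with a q of 9.28e-27 and had no partner in replicate 2.

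By support, 3 of the 26 series peaks in the left span overlapped both replicates, 16 overlapped replicate 1 alone, 0 replicate 2 alone and 7 neither. The 7 of at least 1000 bp began at 7026768 (2368 bp), 7029359 (1414 bp), 7032217 (1096 bp), 7038095 (1666 bp), 7046293 (1734 bp), 7048239 (1841 bp) and 7053825 (1557 bp). Their ranks in the series list lay between 18 and 74. The first and the fourth of these had support in both replicates, and the other 5 in replicate 1 alone. Pieces were close together, with a median gap of 376 bp and a largest of 2.704 kb.

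The right span, 30.71 kb long, was called by both replicates in places towards each end, and in a long stretch in between only replicate 1 had peaks. Near the left end, the series peaks at 9051142 to 9052128 and 9052583 to 9052884 were also in replicate 1 alone. The series list had 10 peaks over 56.3% of it, replicate 1 had 19 over 44.2% and replicate 2 had 8 over 19.4%. All 8 replicate 2 peaks overlapped a replicate 1 peak, and 10 of the 19 replicate 1 peaks overlapped replicate 2. All 10 series peaks were in replicate 1, of which 4 were also in replicate 2. Replicate 2 had no peak over 14.926 kb, from 9055526 to 9070451, wholly inside which replicate 1 had 7 peaks, the best at rank 40. The widest gap of the series list (6.294 kb, from 9056767 to 9063060) and of replicate 1 (6.337 kb, from 9056779 to 9063115) lay inside that stretch.

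The 5 wide peaks of the right span began at 9053417 (3350 bp, rank 10), 9063641 (2026 bp, rank 16), 9068808 (1241 bp, rank 54), 9070261 (1214 bp, rank 28) and 9071677 (7125 bp, rank 7). The first, the fourth and the fifth had support in both replicates. The fifth, IV 9071677 to 9078801 with a q of 8.31e-131, is the strongest and widest peak on the chromosome. It joined 5 replicate 1 peaks and 4 replicate 2 peaks. Replicate 1 called 5.862 kb of it and replicate 2 3.799 kb, of which 2.56 kb was common to both, and together they covered 99.7% of it. The best replicate 1 peak inside it was 9073548 to 9075561 (rank 17), and the best of replicate 2 was 9075086 to 9076482 (rank 23), so the strongest calls overlapped but did not coincide.

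**Figure D5:**
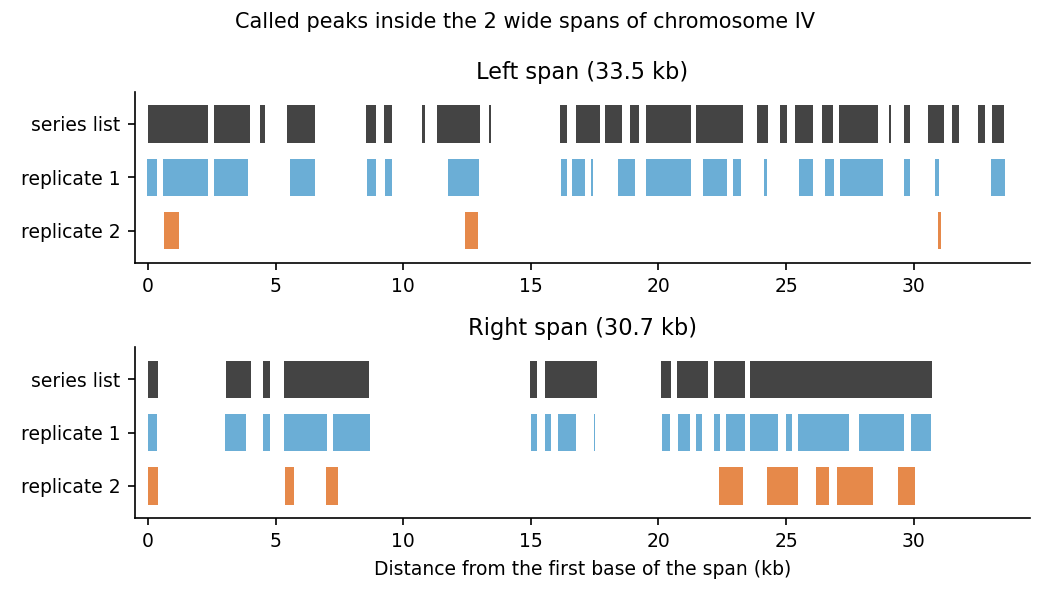
Peaks called in the series list and in each replicate (rows) by distance in kb from the first base of the left span (top) and the right span (bottom). Replicate 2 has 3 peaks in the left span against 22 in replicate 1, and in the right span it has 8 against 19, with none in the 14.926 kb stretch that holds several replicate 1 peaks.

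Outside the spans the replicates were closer in called bases. Replicate 1 had 102 peaks over 24.736 kb and replicate 2 had 56 peaks over 21.272 kb, a ratio of 1.82 in number and 1.16 in bases. In the left span these ratios were 7.33 and 11.5, and in the right span 2.38 and 2.28. On the other chromosomes together replicate 1 had 568 peaks and replicate 2 had 372, and no ratio of bases is given for them. Common to both replicates outside the spans were 11.424 kb, which is 46.2% of the bases of replicate 1 and 53.7% of those of replicate 2. Of the 10 series peaks that covered 2 or more replicate 1 peaks, 9 lay in the spans.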

How the data were processed

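PeakSeq calls on WormBase WS220 make up all 3 deposited lists, per the file headers and column 2: 1 list per ChIP replicate and 1 series-wide. No header or label gives the PeakSeq version, the aligner, the threshold or how inputs were used. Each peak in the deposited lists has a single value, taken here for the authors' q-value. It is unnamed in the headers, but stays below 0.001, and its product with the peak number never falls in any list. It served only to order peaks within a list. Samples were fixed in 2% formaldehyde, per the labels' protocols, and grouped by title. Peaks are not replicates, so no test was run, and shares carry exact Clopper-Pearson intervals. Overlap counts were tested on simulated data. The largest peak end, 17472120, stood for the chromosome length. Joining series peaks no more than 10 kb apart and keeping groups of at least 8 kb called gave exactly the spans. Named peaks are the 20 lowest-q peaks in both replicates outside the spans, those of 1000 bp or wider, the first and last, and shared replicate peaks without a series peak. Members, spans and rules were chosen with earlier results of these data known. Genes, sequences and motifs were not analysed, since the gene table at hand is of WBcel235. Tool versions were Python 3.11.15, matplotlib 3.10.9, scipy 1.17.1, numpy 2.4.6 and pandas 2.3.3.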

Additional observations from a re-analysis of the deposited data

How the results depend on the processing

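Of 39 values recomputed under other settings, 27 stayed within the counting interval of the reported value and 12 moved. A median width counted as staying when within 1.5 times the reported one. For the middle taken as 50% of the chromosome's length, shares were compared after taking off the share of length. Requiring peaks of at least 50 bp, a 50% overlap of the shorter peak, or windows of 200 bp on midpoints moved none of the values recomputed with them. Within the stricter 50% of each list, 89.7% of replicate 2 peaks overlapped replicate 1 in place of 71.6%, the spans held 18.4% of series peaks in place of 11.3%, and the middle 33.3% of the chromosome held 47.5% in place of 39.8%. In the full series list, the middle 33.3% held 32.2% of the peaks outside the spans. The middle 50% of the length held 56.1% of all 319 peaks. Leaving out a replicate turns support into overlap with the other list, which by itself shifts the shares: 18.8% to 37.9% of peaks then had support and 62.1% to 81.2% had none. Taking a replicate list in place of the series list put 16.4% to 28.7% of peaks in the spans and 53.1% to 53.7% in the middle. The cause of these other shifts was not tested. No paired analysis was possible because only the ChIP samples have lists here, and the inputs with the same numbers have none. The effect of depth on peak number is unknown.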
